A study of Homo sapiens with 2 samples.

Results

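Regulators of G protein signalling (RGS) were followed in L-428, an established Hodgkin's lymphoma (HL) cell line. The 9 genes RGS1, RGS2, RGS3, RGS10, RGS12, RGS13, RGS14, RGS16 and RGS19 were taken by name, and every probe set whose only gene symbol was one of these entered, which gave 22 of 22215 probe sets and 9 of 11963 named genes. They were chosen by their signals and ratios on the same 2 arrays, so that the values below are a description without a test. One array held RNA from L-428 cells transfected with pcDNA6.2-GW/EmGFP-miR-DUSP5, a vector that expresses a green fluorescent protein together with an artificial microRNA against DUSP5. The other held RNA from control cells, which had received pcDNA6.2-GW/EmGFP-miR-neg, a vector that the study also calls empty. Both were HG_133A arrays with 1 sample per condition, so no difference has a replicate check, and the share of transfected cells is not given in the sources used here.

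RGS proteins share a domain that speeds up GTP hydrolysis by the alpha subunits of heterotrimeric G proteins. They thereby shorten the signal that a G protein-coupled receptor sends after binding its ligand. In B cells, from whose germinal centre stage HL cells are thought to derive, RGS proteins are known for limiting the response to chemokines. RGS1, RGS2, RGS3, RGS13 and RGS16 belong to the R4 subfamily, of which most are small proteins with little beside the RGS domain. RGS10, RGS12 and RGS14 form the R12 subfamily, and RGS19, also called GAIP, belongs to the RZ subfamily.

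Of the 9 genes, 5 had a single promoter window in the RefSeq tables, and these windows are shown because 4 of the 5 genes were lower after knock-down at their brightest probe set. The windows are the 250 bases before the annotated start site in GRCh38.p14, written 5′ to 3′ on the strand of the gene. They lie at chr1:192575523-192575772 (plus strand) for RGS1, chr1:192635897-192636146 (plus strand) for RGS13, chr1:192808789-192809038 (plus strand) for RGS2 and chr1:182604390-182604639 (minus strand) for RGS16. The window of RGS14, which was not lower at any of its probe sets on the deposited scale, lies at chr5:177357674-177357923 (plus strand). Capitals mark matches on either strand to the GC box GGGCGG or to the NF-kB consensus.
RGS1: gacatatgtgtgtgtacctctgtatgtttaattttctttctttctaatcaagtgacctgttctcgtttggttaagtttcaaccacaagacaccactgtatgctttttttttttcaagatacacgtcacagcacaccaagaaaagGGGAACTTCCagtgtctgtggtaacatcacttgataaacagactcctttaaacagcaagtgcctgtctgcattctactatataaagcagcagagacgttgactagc
RGS13: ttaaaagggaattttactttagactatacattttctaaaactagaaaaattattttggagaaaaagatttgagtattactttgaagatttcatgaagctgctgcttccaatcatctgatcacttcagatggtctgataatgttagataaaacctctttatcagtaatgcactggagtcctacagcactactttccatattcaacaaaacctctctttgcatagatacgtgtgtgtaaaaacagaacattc
RGS2: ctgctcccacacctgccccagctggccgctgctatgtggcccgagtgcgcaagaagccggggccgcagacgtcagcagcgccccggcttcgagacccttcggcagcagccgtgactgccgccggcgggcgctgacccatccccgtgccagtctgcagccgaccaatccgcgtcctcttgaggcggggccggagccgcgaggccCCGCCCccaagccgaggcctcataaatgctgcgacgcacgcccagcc
RGS16: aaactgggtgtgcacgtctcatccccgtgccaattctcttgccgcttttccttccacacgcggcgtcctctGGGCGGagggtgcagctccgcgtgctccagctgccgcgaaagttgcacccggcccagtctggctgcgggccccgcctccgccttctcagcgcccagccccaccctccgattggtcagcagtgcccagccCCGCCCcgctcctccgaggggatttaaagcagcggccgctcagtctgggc
RGS14: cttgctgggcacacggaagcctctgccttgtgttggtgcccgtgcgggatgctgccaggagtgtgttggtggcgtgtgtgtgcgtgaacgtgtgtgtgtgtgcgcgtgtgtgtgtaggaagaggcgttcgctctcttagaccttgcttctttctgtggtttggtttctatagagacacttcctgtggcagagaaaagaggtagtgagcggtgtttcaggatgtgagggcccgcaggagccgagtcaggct

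The windows of RGS1 and RGS13 were poor in G and C, at 39.2% and 32%, against a median of 58% over 35116 promoter windows of the same length. Those of RGS2 (72.8%) and RGS16 (68.4%) lay above this median, and that of RGS14 (56.8%) lay just below it. The GC box was found in RGS2 and at 2 places in RGS16, and in 42.6% of all windows. An NF-kB match, GGGAACTTCC, lay 106 to 97 bases before the start of RGS1, and such matches were found in 9.96% of all windows. The letters of the AP-1 motif TGANTCA (6.57% of all windows), the cAMP response element TGACGTCA (1.65%) and the E-box CACGTG (6.34%) were in none of the 5 windows. None of these motifs was present in all 4 windows of the genes that were lower at their brightest probe set, and the windows differed in base composition. Whether promoter sequence bears on the ratios was not tested. The other 4 genes, RGS3, RGS10, RGS12 and RGS19, have several annotated starts, and the start used by L-428 cells was not measured.

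The signals were those that the MicroarraySuite algorithm gives on a linear scale, after scaling of each array to a target intensity of 500. The median signal was 164 on the knock-down array and 161 on the control array. A ratio is the log2 of knock-down over control, and its error is the SD among probe sets that share a gene, which narrowed with brightness, with 1.19 for mean signals below 100, 0.73 up to 200, 0.41 up to 500, 0.36 up to 1000, 0.30 up to 3000 and 0.26 beyond. This SD holds any difference between probe sets of a gene on these arrays, whatever its source. The spread from culture to culture is not part of it and was not measured. Probe sets with a mean of the 2 signals of at least 200 are called measured here. DUSP5, the target of the knock-down, had a signal of 368 in knock-down cells and 628 in control cells (ratio -0.77, SD 0.41). This was its only probe set, and it did not reach a 2-fold difference. Among the 500 probe sets closest in mean log2 signal, 70 (14%) were as low. The study also compared knock-down and control cells by quantitative RT-PCR in triplicate, and those values are not used here. Of 7 listed markers of HL cells 6 were measured, with ratios at their brightest probe sets between -0.37 (BATF3, 4700 in knock-down cells and 6054 in control cells) and 1.07 (TNFRSF8, or CD30, 3618 in knock-down cells and 1724 in control cells). The summed signal of all 7 was 33828 in knock-down cells and 25017 in control cells, and CCL22 alone was dim. Of 5 markers of B cell identity on the array 1 was measured, PAX5, with 211 in knock-down cells and 268 in control cells (ratio -0.35, SD 0.41). The sum of the 5 was 612 in knock-down cells and 486 in control cells. Dim signals of POU2AF1 (116 in knock-down cells and 9.93 in control cells) and MS4A1 (170 in knock-down cells and 74.9 in control cells) went the other way than PAX5. So did CD79B, also dim (73.3 in knock-down cells and 50.5 in control cells). The dim CD79A was lower (42.3 in knock-down cells and 82.3 in control cells). A further, dim probe set of PAX5 was higher (30.2 in knock-down cells and 7.60 in control cells), so the list was mixed. No marker of T cells (sums of 390 in knock-down cells and 199 in control cells) or of myeloid cells (431 in knock-down cells and 199 in control cells) was measured. These sums were higher on the knock-down array for all 4 lists, and their part in the RGS ratios was not tested.

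Of the 22 RGS probe sets, 10 were measured and 12 were dimmer. Of the 10, 5 were at least 2-fold lower after knock-down of DUSP5 and none was at least 2-fold higher. Over all 10184 measured probe sets, 7.39% were that much lower and 4.61% were that much higher. Because the 9 genes were chosen with these ratios known, nothing is read from the difference between the shares. The 5 lower probe sets belonged to RGS1, RGS2, RGS13 and RGS16, which were all the measured genes of the R4 subfamily. On the level of genes, each at its brightest probe set, 4 of 7 measured RGS genes were at least 2-fold lower, against 7.30% of 6301 measured genes. None was that much higher, against 4.38%. RGS16 entered this count through 209324_s_at, which passed the minimum by its control signal (369, with 166 in knock-down cells). Its other measured probe set had a ratio of -0.10. The RGS14 probe set 211021_s_at, with 206 in knock-down cells and 104 in control cells, did not pass. The median ratio of the 7 genes was -1.15, which is the value of RGS16 at 209324_s_at, with 0.01 over all measured genes. Fewer cells that express a gene and less RNA per cell cannot be told apart in such samples.

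**Figure D1:**
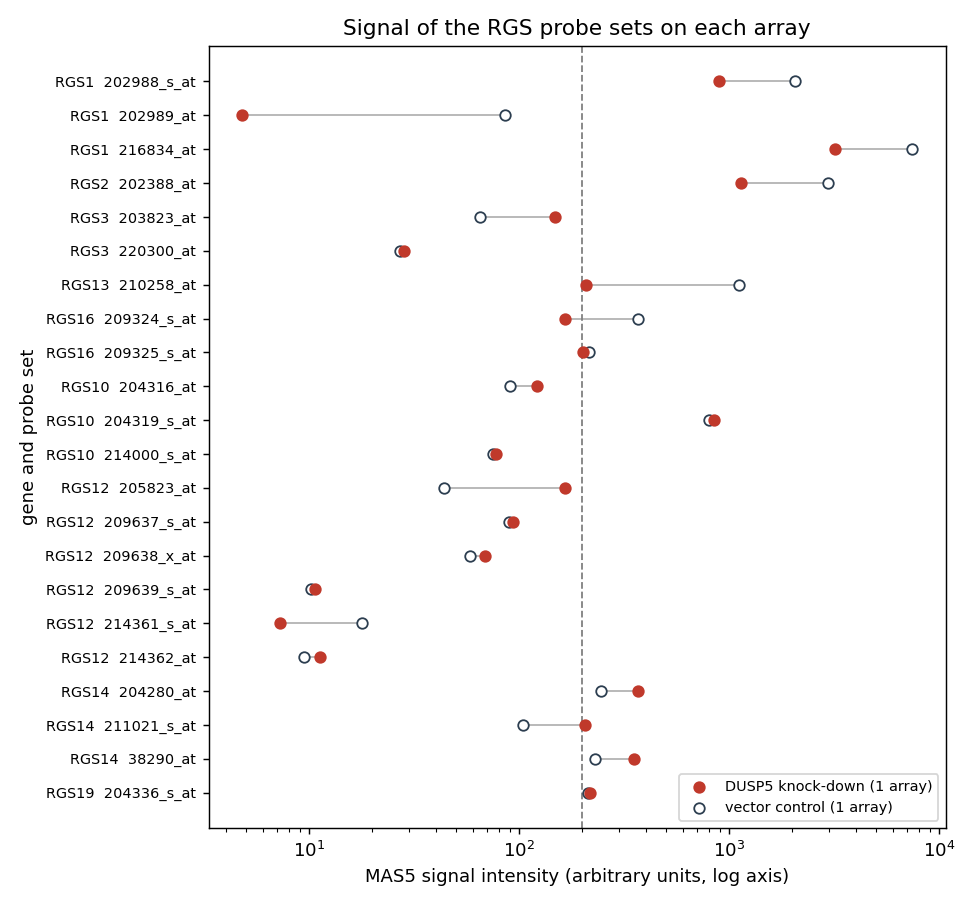
MAS5 signal intensity (arbitrary units, log axis) of the 22 RGS probe sets, with filled red points for the DUSP5 knock-down array and open points for the vector control array, 1 array each. The dashed line marks a signal of 200, and the red points of RGS1, RGS2 and RGS13 lie left of the open ones, farthest on a log scale at the dim RGS1 probe set, with 4.79 against 85.5.

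RGS1, which is abundant in activated and germinal centre B cells and limits their migration toward chemokines, was lower at all 3 of its probe sets. Probe set 216834_at gave 3183 in knock-down cells and 7435 in control cells, a ratio of -1.22 (SD 0.26). Probe set 202988_s_at gave 890 in knock-down cells and 2059 in control cells, a ratio of -1.21 (SD 0.30). Both brighter probe sets therefore placed RGS1 at about 43% of control, at 42.8% and 43.2%, and they differed by 0.01. The dim probe set 202989_at gave 4.79 in knock-down cells and 85.5 in control cells, a ratio of -4.16 with an SD of 1.19. With 32 added to each signal this ratio was -1.68, so that its size rests on signals near 0. These signals lie in the band where the SD between probe sets was widest. Among the 500 probe sets closest in mean log2 signal, 9 (1.8%) were as low as 216834_at, 21 (4.2%) as low as 202988_s_at and none as low as 202989_at.

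RGS13, a small R4 protein known from germinal centre B cells and mast cells, had the lowest ratio of the measured RGS probe sets. Its only probe set, 210258_at, gave 208 in knock-down cells and 1116 in control cells. This is 18.7% of control, a 5.36-fold lower signal and a ratio of -2.42 (SD 0.36). The difference was 6.64 times the SD between probe sets. Of all 10184 measured probe sets 33 had a ratio as low or lower, RGS13 included, and of the 500 nearest in signal 3 (0.6%) did. With 1 probe set, RGS13 has no second measurement on these arrays.

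RGS2, which acts chiefly on alpha subunits of the Gq class, also had 1 probe set. Probe set 202388_at gave 1144 in knock-down cells and 2956 in control cells, or 38.7% of control, with a ratio of -1.37 (SD 0.30). Among the 500 closest in signal 9 (1.8%) were as low. RGS2 and the measured probe sets of RGS1 thus had ratios within 1 SD of each other, and RGS13 lay lower than these by more than 1 SD.

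RGS16, an R4 gene that is induced when lymphocytes are activated, gave a divided result. Probe set 209324_s_at gave 166 in knock-down cells and 369 in control cells, 45% of control and a ratio of -1.15 (SD 0.41). Probe set 209325_s_at gave 201 in knock-down cells and 215 in control cells, 93.5% of control and a ratio of -0.10 (SD 0.41). Both lie at low signal, and their ratios differed by 1.05, which is more than the SD of a difference at this signal (0.58). The probe sets of RGS16 thus gave no common size. Among the 500 closest in signal, 30 (6%) were as low as 209324_s_at and 196 (39.2%) as low as 209325_s_at.

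RGS3, the remaining R4 gene, which also has longer forms with further domains, was not measured. Probe set 203823_at gave 147 in knock-down cells and 65.3 in control cells, a ratio of 1.17 (SD 0.73), and 8.4% of the 500 probe sets of like signal were as high. Probe set 220300_at gave 28.1 in knock-down cells and 27.2 in control cells, a ratio of 0.05 (SD 1.19). The direction of RGS3 thus rests on 1 dim probe set.

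**Figure D2:**
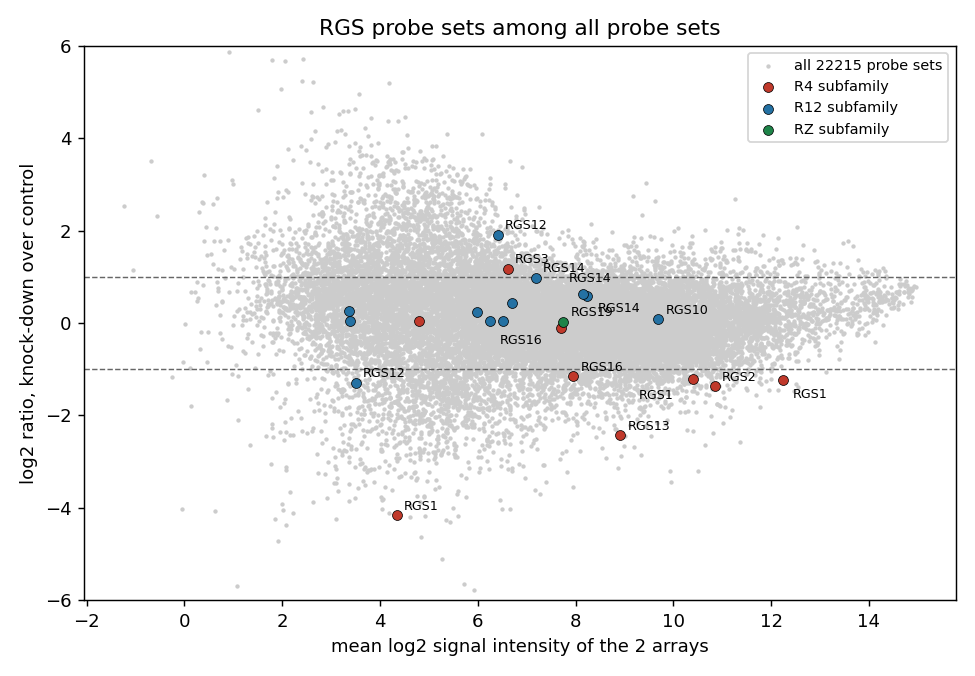
Vertical axis, log2 of knock-down over control signal (1 array per condition), and horizontal axis, mean log2 signal of both arrays. Grey points are 22215 probe sets, of which 4 lie outside the vertical range. Coloured points are the RGS probe sets by subfamily and dashed lines mark a 2-fold difference. RGS13 at -2.42 and RGS1 at -1.22 lie in the lower part of the grey points of like signal.

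In the R12 subfamily no measured probe set reached a 2-fold difference. RGS14, which binds Ras and Rap proteins in addition to alpha subunits of the Gi class, was higher at all 3 probe sets on the deposited scale, although both measured ones turn lower relative to GAPDH. Probe set 204280_at gave 369 in knock-down cells and 246 in control cells (ratio 0.59, SD 0.41), and 38290_at gave 353 in knock-down cells and 229 in control cells (ratio 0.63, SD 0.41). The dimmer 211021_s_at gave 206 in knock-down cells and 104 in control cells (ratio 0.99, SD 0.73). Each ratio was larger than 1 SD and smaller than 2 SD, and 13.2%, 12% and 6.2% of the 500 probe sets of like signal were as high.

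RGS10, one of the smallest members of the family, was close to control. Its measured probe set 204319_s_at gave 851 in knock-down cells and 804 in control cells, 106% of control and a ratio of 0.08 (SD 0.36). The dim probe sets 204316_at (121 in knock-down cells and 90.2 in control cells) and 214000_s_at (77.4 in knock-down cells and 74.6 in control cells) had ratios of 0.43 (SD 0.73) and 0.05 (SD 1.19). All 3 ratios were smaller than 1 SD.

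RGS12, the largest protein of the R12 subfamily, with PDZ and Ras-binding domains, had 6 probe sets, and none was measured. Probe set 205823_at gave 165 in knock-down cells and 43.8 in control cells, a ratio of 1.92 (SD 0.73), and 1.6% of the 500 probe sets of like signal were as high. Probe set 214361_s_at went the other way, with 7.28 in knock-down cells, 17.8 in control cells and a ratio of -1.29 (SD 1.19). The other 4 had ratios between 0.05 and 0.26. The probe sets of RGS12 therefore gave no common direction.

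RGS19, which acts on alpha subunits of the Gi class, had 1 probe set near the limit of 200. Probe set 204336_s_at gave 218 in knock-down cells and 213 in control cells, a ratio of 0.03 (SD 0.41). RGS10 and RGS19 differed from control by less than 1 SD, while RGS1, RGS2 and RGS13 differed by more than 3 SD at their 4 measured probe sets.

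A further 8 numbered RGS genes had probe sets with a single symbol but are not among the 9, namely RGS4, RGS5, RGS6, RGS7, RGS9, RGS11, RGS17 and RGS20. None of their 16 probe sets was measured, and the highest mean signal was 95.6, of RGS9, with 73.1 in knock-down cells and 118 in control cells. Their ratios ran between -1.87 (RGS5) and 1.43 (RGS6), with 10 above and 6 below 0. Of these, 4 were larger than the SD of 1.19 at this signal, at RGS4, RGS5, RGS6 and RGS20. The R4 genes RGS4 and RGS5 gave ratios of 0.35, 0.78 and 1.36 for RGS4 and of -0.51, -1.87 and -1.06 for RGS5, at signals of at most 100.1 on either array.

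RGS1, RGS13 and RGS2, the 3 genes with the lowest ratios at a measured probe set, are consecutive protein-coding genes of chromosome 1 in the RefSeq annotation of GRCh38.p14. In that order, RGS18 and RGS21 come before RGS1 and have no probe set with a single symbol. UCHL5, a deubiquitinating enzyme of the proteasome, follows RGS2 and was higher. Its probe set 219960_s_at gave 1897 in knock-down cells and 1039 in control cells (ratio 0.87, SD 0.30), and 220083_x_at gave 324 in knock-down cells and 159 in control cells (ratio 1.03, SD 0.41). RO60, which encodes an RNA-binding autoantigen and comes next, was lower at all 5 of its probe sets, with ratios of -1.12 to -0.86. The brightest of these gave 1976 in knock-down cells and 4244 in control cells. GLRX2 (ratio 0.17, SD 0.36) and CDC73 (-0.53, SD 0.36), farther along, differed less. The 3 RGS genes were chosen with their ratios known, so nothing about the region is read from their low run. Beyond them, UCHL5 was higher and RO60 was lower. At least 1.5-fold lower were 19.0% of the 6301 measured genes, and 15.6% were that much higher.

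**Figure D3:**
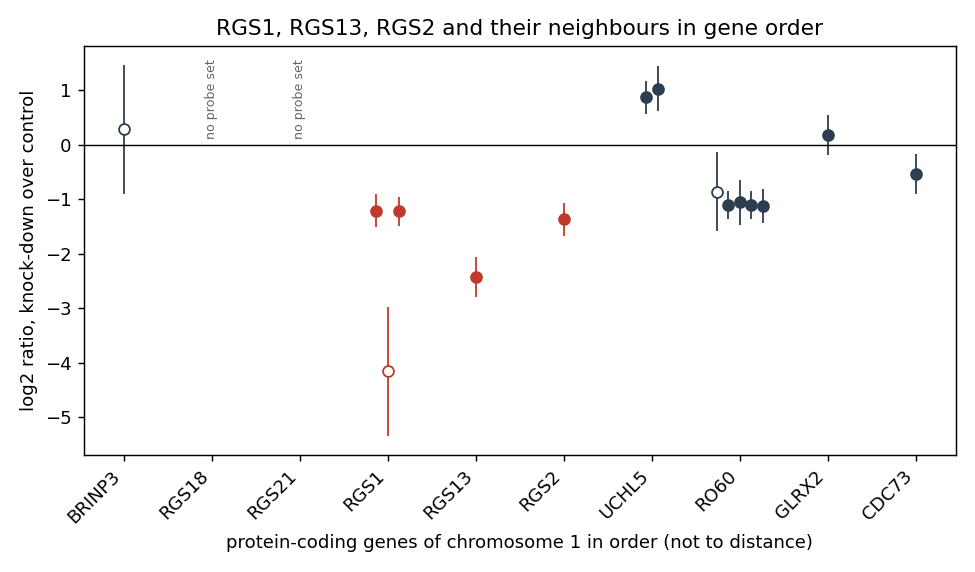
Ratios (log2 of knock-down over control, 1 array per condition) of each probe set for RGS1, RGS13 and RGS2 (red) and their neighbours (dark) in the order of protein-coding genes on chromosome 1, where the horizontal axis does not show distance. Filled points are measured, open points have a mean signal under 200, and bars are 1 SD between probe sets. The 3 RGS genes and RO60 lie below 0, and UCHL5 lies above at 0.87 and 1.03.

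RGS16 lies elsewhere on chromosome 1. Of the genes near it, NPL gave 101 in knock-down cells and 181 in control cells (ratio -0.84, SD 0.73) and RGSL1 gave 50.1 in knock-down cells and 85.9 in control cells (-0.78, SD 1.19), both dim. RGS14 lies between LMAN2, a cargo receptor of the secretory pathway with a ratio of 0.49 (SD 0.30) at its bright probe set, and SLC34A1, a phosphate transporter whose dim probe sets had ratios of 0.78 and 1.30. RGS10 lies between GRK5, a receptor kinase with ratios of -0.61 and -0.57, and TIAL1, an RNA-binding protein with ratios of -1.13, -0.16 and -0.32. At its brightest probe set, with -0.16, TIAL1 was within 1 SD (0.30) of control, as RGS10 was, while its probe set with -1.13 was not (SD 0.41). Also near RGS10, PRDX3 had 0.51 (SD 0.26) and BAG3 -0.21 (SD 0.36) at their brightest probe sets. POLE3, near RGS3, had -0.88 (SD 0.30), against 1.17 at the brighter probe set of RGS3. AMBP, also near RGS3 and dim, had 0.73 and 0.75. HTT, near RGS12, had -0.005 (SD 0.41) at its measured probe set. Beside RGS19 (0.03), OPRL1 had 0.85 and 2.08 and TCEA2 -0.11, all dim. Neighbours thus did not all go with their member.

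The other genes of the G protein pathway were examined in 8 lists. A difference of 1.5-fold or more was upward in 15.6% and downward in 19.0% of the 6301 measured genes. Of 15 alpha subunits, the substrates of RGS proteins, 7 were measured, with 3 higher and 2 lower by 1.5-fold or more and a median ratio of 0.28. GNAI2, an alpha subunit of the Gi class through which chemokine receptors signal, was highest, with 1219 in knock-down cells and 342 in control cells at its only probe set (ratio 1.84, SD 0.36). GNA12 followed at 0.79, and the Gq class gene GNA11 (-0.63) and GNA13 (-0.60) were lowest. Of the 500 probe sets nearest to that of GNAI2 in signal 1 (0.2%) was as high. GNAI2 was higher while RGS1, RGS2 and RGS13 were lower, and whether these differences are linked was not tested.

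Of 17 beta and gamma subunits 6 were measured, 1 higher and 3 lower by at least 1.5-fold, between GNG10 (-0.78) and GNG11 (-0.76) at one end and GNG5 (0.28) and GNB2 (0.64) at the other, and the median of -0.24 changed sign when dim genes were included (0.34). Of 9 other proteins with a domain related to that of RGS proteins 6 were measured, 1 higher and 2 lower, with ARHGEF12 (-0.86) and SNX13 (-0.60) lowest and AXIN1 (0.22) and ARHGEF1 (0.71) highest (median -0.14). SNX13 had a ratio of 0.33 at another measured probe set, and ARHGEF12 one of 0.30. Of 10 further regulators of alpha subunits 5 were measured, 1 higher and 1 lower, with GPSM3 (-0.71) and RIC8B (-0.28) lowest and NUCB1 (0.42) and GPSM2 (0.83) highest (median -0.24). No measured gene of these 3 lists reached a 2-fold difference at its brightest probe set.

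Of 9 receptor kinases and arrestins 4 were measured. GRK6, which phosphorylates activated receptors and is abundant in immune cells, was higher at all 4 probe sets. Its brightest gave 1468 in knock-down cells and 667 in control cells (ratio 1.14, SD 0.30), and the other 3 had ratios of 0.53, 0.64 and 1.68. GRK3 (0.33) and GRK2 (0.28) lay between, and GRK5 (-0.61) was lowest (list median 0.31). Of 17 effectors 3 were measured, namely the adenylyl cyclases ADCY3 (1.03, and 0.59 at its other probe set) and ADCY1 (-0.12) and the lipid kinase subunit PIK3CG (0.58). PIK3CG had -0.71 at its other, dimmer probe set, and ADCY1 had -2.34 and 2.49 at dim ones. The median of the 3 genes was 0.58, and 0.01 when all probe sets of a gene were averaged. The other effectors were dimmer than the minimum or had no probe set.

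Among 29 receptors known from B cells 9 were measured, none at least 1.5-fold higher and 3 lower, with a median of -0.02. CXCR4, the chemokine receptor whose signal RGS1 is known to dampen, had 6271 in knock-down cells and 7508 in control cells at its brightest probe set (ratio -0.26, SD 0.26), with -0.24 and -0.43 at its others. CCR7, the receptor that guides lymphocytes into lymph nodes, had 7675 in knock-down cells and 7768 in control cells (ratio -0.02, SD 0.26). The thrombin receptor F2R was lowest, with 103 in knock-down cells and 709 in control cells at its only probe set (ratio -2.78, SD 0.41). PTGER4, a receptor for prostaglandin E2 that raises cAMP, followed with 3566 in knock-down cells and 5975 in control cells (ratio -0.74, SD 0.26) and -1.01 at its other probe set. GPR183 (0.31), which positions B cells in follicles, and the cannabinoid receptor CNR2 (0.26) were highest. The chemokine receptors CXCR4 and CCR7 thus stayed closer to control than RGS1, RGS2 and RGS13 at all 4 probe sets.

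Of 12 genes listed for the cAMP response 4 were measured, none at least 1.5-fold higher and 2 lower, with a median of -0.26. CREM, which encodes activators and repressors that bind the cAMP response element, was lower at its 3 measured probe sets, with ratios of -0.80, -1.73 and -0.56. The brightest gave 513 in knock-down cells and 894 in control cells. PDE4D (-0.59) and PDE4A (0.08), phosphodiesterases that degrade cAMP, lay between. PDE4D had 0.31 and -0.53 at its other measured probe sets and -0.28 at a dim one. CREB1, the activator itself, was highest with 759 in knock-down cells and 573 in control cells (ratio 0.40, SD 0.36), and with 0.74, 1.03 and 1.15 at its other probe sets.

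**Figure D4:**
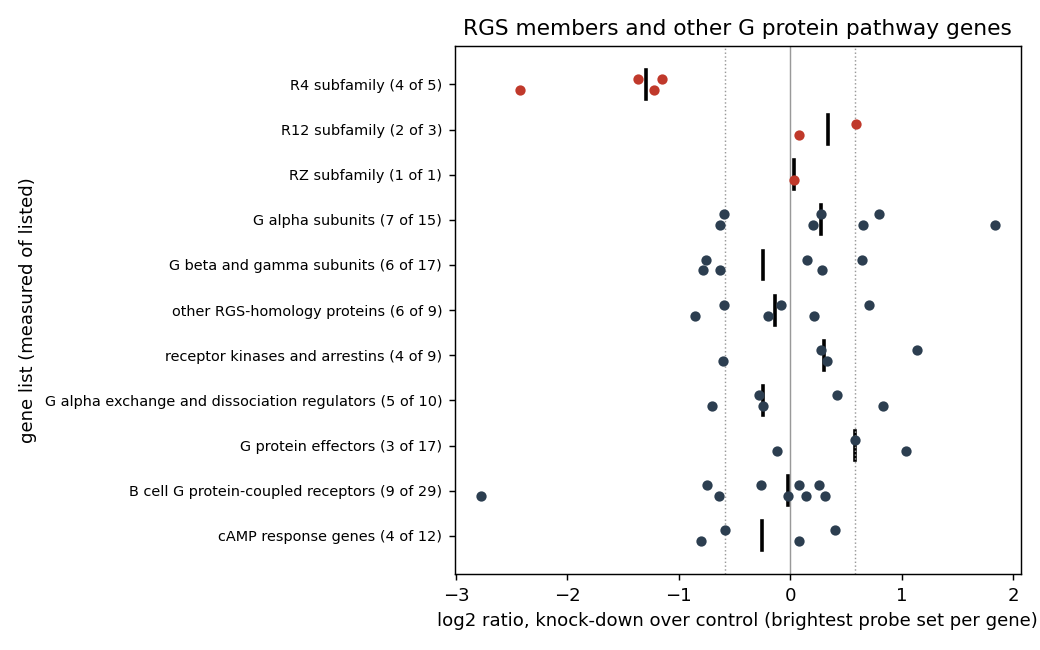
Horizontal axis, log2 of knock-down over control signal (1 array per condition), for measured genes of the 3 RGS subfamilies (red) and of 8 other lists (dark), 1 point per gene at its brightest probe set, with the number measured of the number listed. Black bars are medians, dotted lines mark a 1.5-fold difference and the vertical offset of points has no meaning. The R4 genes have a median of -1.30, and F2R (-2.78) and GNAI2 (1.84) lie farthest out among the other genes.

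The ratios of RGS1, RGS2, RGS13 and of the lower RGS16 probe set stayed at or below -1 under each of 4 other scalings of the arrays. Between quantile normalization, median centring, subtraction of a signal-dependent trend and the addition of 32 to each signal, the ratio of RGS13 ran between -2.55 and -2.26, that of RGS2 between -1.49 and -1.35 and that of the brightest RGS1 probe set between -1.40 and -1.22. GAPDH, the study's reference gene for RT-PCR, was itself higher after knock-down (median ratio 0.98 at 3 probe sets). Relative to GAPDH, all ratios are lower by this value, which places RGS13 at -3.40 and RGS2 at -2.35, and turns RGS14 to -0.39 and -0.35 at its 2 measured probe sets, RGS10 to -0.89 and RGS19 to -0.94. The higher signal of RGS14 after knock-down therefore holds on the scale of the whole array, not relative to GAPDH. GAPDH was not the only bright reference gene that was higher. The actin gene ACTB had ratios of 0.76 and 0.80 (SD 0.26). Of the probe sets of like signal, 5.2% to 10.8% were as high as those of GAPDH. For ACTB these shares were 18.8% and 16.8%. Ratios relative to ACTB were not computed.

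**Figure D5:**
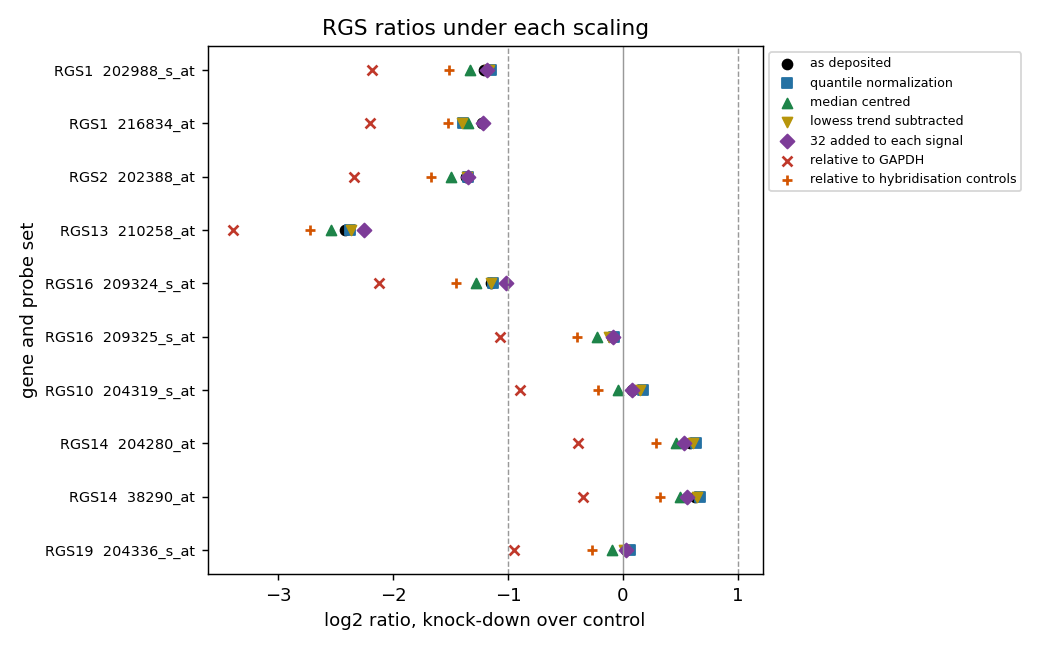
Log2 of knock-down over control signal (1 array per condition) for the 10 measured RGS probe sets as deposited and under 6 other scalings, where each symbol is a scaling and dashed lines mark a 2-fold difference. RGS1, RGS2, RGS13 and 209324_s_at of RGS16 lie left of -1 throughout, and relative to GAPDH (crosses) RGS14 lies below 0.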

How the data were processed

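RNA from 1 sample of L-428 cells with the DUSP5 knock-down vector and 1 with control vector was hybridised to HG_133A arrays. Signal intensities were computed by the authors from Cel files in Expression Console (MAS5 algorithm) and deposited on a linear scale with a target of 500. Detection calls were not used here, and the number of arrays limits the precision.

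Gene symbols came from the platform annotation of 2016. Of 22215 probe sets other than 68 controls, 19065 had 1 symbol, 1043 several and 2107 none, and only those with 1 were named. Log2 ratios were taken as knock-down over control without further normalization. The SD was computed from pairs of probe sets of the same gene in the same signal band. Probe sets were called different at a mean signal of at least 200 and a 2-fold difference, and genes of lists at 1.5-fold, with each gene at its brightest probe set. No test was made, because each condition has 1 array. All RGS probe sets are named, and of each other list at most 2 measured genes from the top and 2 from the bottom of its ratios; further genes and probe sets of lists, such as CXCR4 and CCR7, were named after their values were seen. The 9 genes and all lists were chosen with earlier results of these data known. Promoter windows and gene order are those of RefSeq (GRCh38.p14), with all 9 genes matched; the comparison of protein sequences that had been planned was not made. Alternatives were quantile normalization, median centring, subtraction of a lowess fit (span 0.3), 32 added to each signal, other filters and size rules, the mean of all probe sets, and a count limited to probe sets ending in neither _s_at nor _x_at. Steps were tested on simulated data. Python 3.11.15, numpy 2.4.6, pandas 2.3.3, statsmodels 0.14.6 and matplotlib 3.10.9 were used.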

Additional observations from a re-analysis of the deposited data

How the results depend on the processing

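Of the measured RGS probe sets 5 were at least 2-fold lower and none was at least 2-fold higher. At 3-fold, 1 was lower (RGS13), against 1.75% of all probe sets, and when those ending in _s_at or _x_at were left out 3 of 5 were lower (RGS1, RGS2 and RGS13), against 8.69%. Without a minimum signal 2 of 22 were higher (RGS3 and RGS12), against 12.6%, and at 1.5-fold 2 were higher (both RGS14), against 15.9%. With no filter 7 of 22 were lower, against 9.57% of all, and relative to GAPDH 6 were lower, against 48.5%. In the remaining alternatives 4 or 5 were lower, with 6.29% to 18.8% of all, and none was higher except without a filter and at 1.5-fold. Ratios relative to GAPDH and to the 18 bacterial hybridisation controls (median ratio 0.30) were added after the data were seen. Of 132 comparisons of an RGS ratio with its value in another scaling, 116 moved by less than the SD between probe sets and 16 by more, 14 of them relative to GAPDH, which by its construction subtracts 0.98. No ratio of at least 2-fold changed sign. Median centring and the lowess fit lowered the median of all probe sets by 0.12. Of 90 list medians 77 moved by less than 0.41 and 13 by more, 9 of them relative to GAPDH. The other 4 were beta and gamma subunits with no filter (0.34) and without _s_at and _x_at (-0.76), and effectors (0.01) and the R4 subfamily (-1.78) when probe sets of a gene were averaged. These averages took in dim probe sets, with ratios of -4.16 for RGS1, -2.34 and 2.49 for ADCY1 and -0.71 for PIK3CG. For the beta and gamma subunits the cause was not tested in these data. No paired analysis was possible because only 1 array was made per condition. Signals near background limit RGS3, RGS12 and the dim RGS1 probe set.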
